A study of Mus musculus with 16 samples.

Results

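The 46 imprinted genes analysed here were taken from the known mouse imprinted domains, out of 22232 protein-coding genes of the annotation, and all 46 were found in it. For each of them, peaks of 10 ChIP-seq lists were collected when the peak centre lay within 2500 bp of a start of a protein-coding transcript (mm9, GENCODE M1). The rule names the genes and uses no measured value, although results of these data were known when it was written. The lists came from 46C mouse embryonic stem cells (ES), a line that carries a Sox1-GFP reporter of neural fate and was grown on inactivated mouse embryonic fibroblasts with LIF and the 2i inhibitors, and from neural precursor cells (NPC) made from such ES by suspension culture and collected at day 6. Histone H2A monoubiquitinated at lysine-119 (H2AK119ub1) and histone H3 trimethylated at lysine 27 (H3K27me3) were each profiled in wild type ES, ES labelled shPCGF5, wild type NPC and NPC labelled shPCGF5, which gives 8 lists. The labels also call the shPCGF5 samples PCGF5-depleted, the name used here. The study made lentiviral hairpin lines in 46C cells, and it also describes nuclease knockout clones. The label and cell line thus point to the hairpin lines. A supplement title of the study names PCGF5 knockout cells for the histone profiles, so this is not certain. The other 2 lists hold binding of PCGF5, 1 in ES and 1 in NPC, pulled down through a Flag tag knocked into the Pcgf5 gene of otherwise wild type cells. The remaining 6 of 16 libraries were inputs and were not used. Each group had 1 library, so there is no replicate error and no test, and each difference below is between 2 libraries.

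Imprinted genes are expressed only or mainly from the allele of 1 parent, some of them in certain tissues only. In many cases a methylation mark laid down in the egg or the sperm is kept on 1 allele after fertilisation. The allele named for a gene below is the one known from other work, and allele use in these cells was not measured. Many of them act on fetal growth, the placenta and the brain, and they lie in domains that share a control region. Polycomb repressive complexes 1 and 2 place H2AK119ub1 and H3K27me3, and PCGF5 is a subunit of a variant form of complex 1. At several imprinted domains Polycomb marks are known to lie on the repressed allele, but the lists do not separate the alleles, and a peak here may stem from 1 or both of them. No list measures expression.

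The 10 lists held between 653 and 14759 peaks. Their depth is unknown, since no read totals were given, and peaks were called in each library alone, so a missing peak is not proof of a missing mark. A fold is the enrichment over background that the peak caller gave within 1 library, and covered length is the summed width in bp of the peaks at a gene. The libraries were also compared with lineage markers. Of 7 ES markers, 1 had an H3K27me3 promoter peak in wild type ES and 4 in wild type NPC (Zfp42, Esrrb, Klf4 and Tdgf1), while Pou5f1 and Nanog had no peak in any list. Of 6 neural markers found in the annotation, 5 had an H3K27me3 peak in wild type ES and 5 in wild type NPC, 4 of them the same. In depleted NPC, 2 ES markers and 6 neural markers had one.

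To show what the marked and bound promoters look like in sequence, some stretches are printed from the mm9 genome in lower case with each CpG in capitals, since CpG-rich DNA is where Polycomb marks usually lie. The first 2 are from promoters with H3K27me3 in all 4 lists, and the next pair from paternally expressed genes with no peak in any list. Each is the 150 bases before the most upstream start, on the strand of the gene. Snrpn has another start far downstream, which is not shown.
Ascl2, chr7:150155170-150155319: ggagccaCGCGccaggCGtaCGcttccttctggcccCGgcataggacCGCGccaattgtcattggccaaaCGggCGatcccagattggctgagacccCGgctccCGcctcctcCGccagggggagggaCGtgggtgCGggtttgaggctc
Klf14, chr6:30908991-30909140: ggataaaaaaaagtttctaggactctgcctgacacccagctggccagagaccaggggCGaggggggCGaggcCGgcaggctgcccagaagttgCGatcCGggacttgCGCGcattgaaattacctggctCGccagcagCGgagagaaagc
Peg3, chr7:6683133-6683282: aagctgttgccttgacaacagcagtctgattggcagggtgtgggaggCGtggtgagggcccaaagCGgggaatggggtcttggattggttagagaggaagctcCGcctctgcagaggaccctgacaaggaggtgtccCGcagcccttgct
Snrpn, chr7:67285106-67285255: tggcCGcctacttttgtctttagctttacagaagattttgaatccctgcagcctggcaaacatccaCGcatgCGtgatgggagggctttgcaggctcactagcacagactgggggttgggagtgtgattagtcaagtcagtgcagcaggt

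These stretches hold 14 CpG (Ascl2), 9 (Klf14), 4 (Peg3) and 3 (Snrpn). They are chosen examples and do not stand for all promoters with or without a mark. Within 500 bp on each side of a start, the highest CpG counts were 55 (Ascl2), 103 (Klf14), 48 (Peg3) and 29 (Snrpn). Nap1l4, with no peak in any list, had 89. The following are peaks that the results below turn on, given on the forward strand. They are the Flag-PCGF5 peak of NPC inside Grb10 (without its 63 bases in an annotated untranslated exon), the upstream Flag-PCGF5 peak of NPC at Mest, the Flag-PCGF5 peak of NPC at Slc38a4 (without 10 such bases), and the H2AK119ub1 peak of PCGF5-depleted NPC farther upstream of Rasgrf1.
Grb10, chr11:11925701-11925840: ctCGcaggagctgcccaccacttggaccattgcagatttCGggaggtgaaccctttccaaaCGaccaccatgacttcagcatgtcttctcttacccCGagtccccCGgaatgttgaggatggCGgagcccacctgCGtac
Mest, chr6:30685731-30685906: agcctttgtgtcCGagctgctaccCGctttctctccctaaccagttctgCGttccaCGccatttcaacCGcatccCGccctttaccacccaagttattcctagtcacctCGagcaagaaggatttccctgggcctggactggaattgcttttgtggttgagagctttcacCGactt
Slc38a4, chr15:96886388-96886559: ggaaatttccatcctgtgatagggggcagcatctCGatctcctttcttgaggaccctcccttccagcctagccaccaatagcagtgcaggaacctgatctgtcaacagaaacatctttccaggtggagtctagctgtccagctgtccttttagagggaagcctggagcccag
Rasgrf1, chr9:89803558-89803712: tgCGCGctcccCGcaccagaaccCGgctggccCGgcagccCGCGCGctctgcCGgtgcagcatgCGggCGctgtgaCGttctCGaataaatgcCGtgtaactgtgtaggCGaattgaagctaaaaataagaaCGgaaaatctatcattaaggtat

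The Rasgrf1 stretch holds 16 CpG, Mest 8, Grb10 7 and Slc38a4 1. None of these 8 stretches holds TGCCGC, the core bound by the imprint protector ZFP57, or the core of the CTCF motif, on either strand. These letters were also searched in the 250 bases before every start, where TGCCGC was found at 14 of 46 imprinted genes (30.4%) and at 15.5% of all genes, and the CTCF core at none of the imprinted genes and at 9 of all genes. Imprinted genes had a mean of 3.24 annotated starts and all genes 2.07, so more sequence was searched, and more windows were open to a peak, at an imprinted gene.

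H3K27me3 lay at 17 of 46 imprinted genes in wild type ES, beside 13.4% of all genes, and at 17 in PCGF5-depleted ES, beside 12.9%. In NPC it lay at 15 in wild type cells (background 15.7%) and at 15 in PCGF5-depleted cells (15.4%). The share of imprinted genes was thus 37% in both ES lists and 32.6% in both NPC lists. H2AK119ub1 was found at fewer, namely 11 in wild type ES (6.69%), 8 in PCGF5-depleted ES (5.96%), 8 in wild type NPC (4.98%) and 9 in depleted NPC (4.17%). Flag-PCGF5 had a promoter peak at 1 imprinted gene in ES, where 0.787% of all genes had one, and at 9 in NPC, where 13.7% did. The plot of shares by list shows that the imprinted genes were above all genes in each list, by a smaller factor for Flag-PCGF5 in NPC than for the histone marks.

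**Figure D1:**
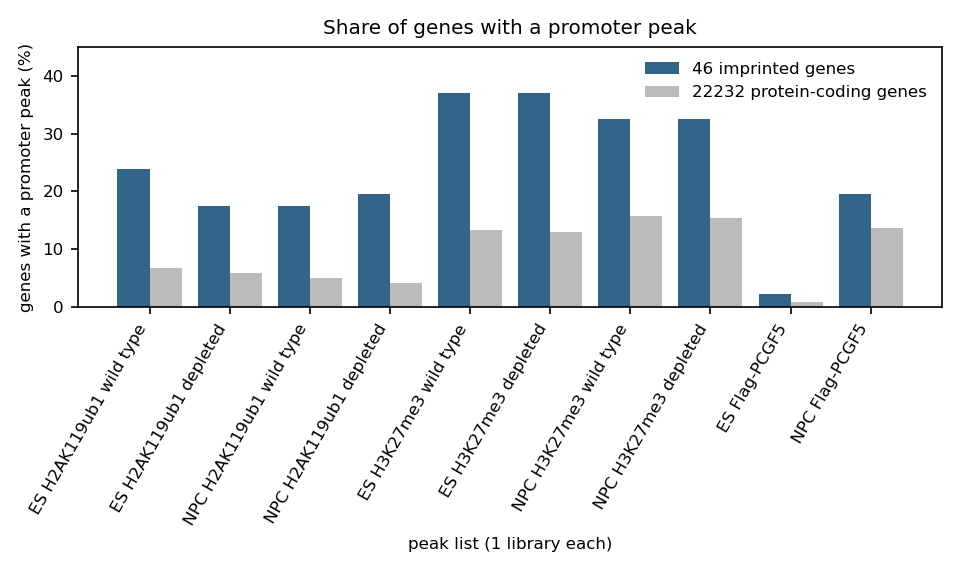
Percent of genes with a promoter peak (y axis) in each of the 10 peak lists (x axis, 1 library each). Blue bars stand for the 46 imprinted genes and grey bars for all 22232 protein-coding genes. For H3K27me3 the blue bars stand at 37% in ES and 32.6% in NPC, beside grey bars between 12.9% and 15.7%.

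H3K27me3 was in all 4 lists at 12 imprinted genes (Igf2, Cdkn1c, Phlda2, Ascl2, Osbpl5, Grb10, Calcr, Klf14, Dlk1, Gnas, Rasgrf1 and Slc22a3), beside 7.21% of all genes, and in at least 1 list at 21 (23.1%). H2AK119ub1 was in all 4 lists at 5 (Igf2, Grb10, Dio3, Gnas and Rasgrf1; 1.52%) and in at least 1 at 14 (12%). Igf2, Grb10, Gnas and Rasgrf1 had a peak in all 8 histone lists, beside 1.42% of all genes. At least 1 of the 8 histone lists held a peak at 22 imprinted genes (24.6%), and at least 1 of the 10 lists at 28 (33.8%). All 8 imprinted genes with H2AK119ub1 in wild type NPC also had H3K27me3 there, and in wild type ES 9 of 11 did, the exceptions being Ins2 and Slc22a18. Both shares are near those of all such genes, 94.9% and 79.8%. In the other direction, 8 of 15 imprinted genes with H3K27me3 in wild type NPC (30.2%) and 9 of 17 in wild type ES (39.9%) had H2AK119ub1.

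**Figure D2:**
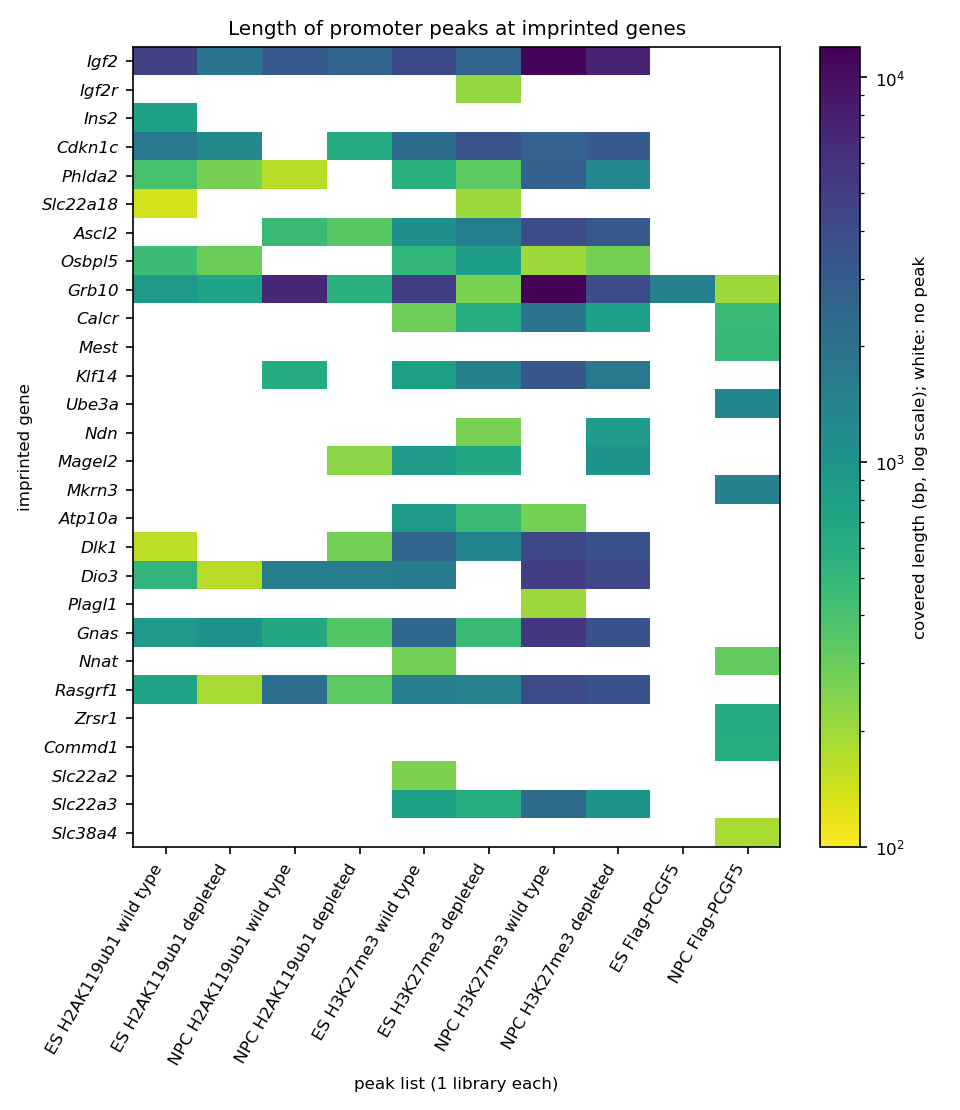
Covered length of promoter peaks (colour, bp, log scale) at the 28 imprinted genes with a peak in at least 1 list (rows) in each of the 10 lists (columns). White means no peak; the darkest cells are H3K27me3 of wild type NPC at Grb10 (11587 bp) and Igf2 (11209 bp), and 6 genes have Flag-PCGF5 of NPC alone.

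The genes with the longest coverage in any list were Igf2 and Grb10, which act on the same growth pathway. Coverage is summed over all starts of a gene, of which Igf2 has 8 and Grb10 6, while Cdkn1c, Ascl2, Klf14 and Rasgrf1 each have 1. The part of the number of starts in this ranking was not tested. Igf2 (chr7:149836673-149852721, reverse strand) encodes a fetal growth factor expressed from the paternal allele. Its H3K27me3 peaks covered 4119 bp in wild type ES, 2584 bp in PCGF5-depleted ES, 11209 bp in wild type NPC and 7605 bp in depleted NPC. Coverage was thus longer in NPC and shorter in depleted cells at both stages. Its H2AK119ub1 peaks covered 4746, 1870, 3118 and 2558 bp in the same order, so this mark was not longer in wild type NPC. Most of the H3K27me3 of wild type NPC, 8577 bp, had its nearest start among the 7 that lie close together, and 2632 bp was nearest to the start farthest upstream. No Flag-PCGF5 peak lay at Igf2 in either stage, and the nearest one in either list was 5241196 bp away. Igf2r, the receptor that removes this factor and is expressed from the maternal allele, had 1 H3K27me3 peak of 217 bp in PCGF5-depleted ES, in its intron, and no other peak.

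Grb10 (chr11:11830511-11938686, reverse strand), an adaptor that restrains signalling from the insulin and IGF receptors, was the imprinted gene with a peak in all 10 lists. It is expressed from the maternal allele in most tissues and from the paternal allele in neurons, where a downstream promoter is used. Its H3K27me3 covered 4980 bp in wild type ES, 260 bp in PCGF5-depleted ES, 11587 bp in wild type NPC and 3866 bp in depleted NPC. The highest fold was 6.69, 5.84, 13 and 5.57 in that order. H2AK119ub1 covered 895, 738, 6929 and 569 bp. In NPC both marks were therefore much shorter in the depleted list than in the wild type list, while in ES this was so for H3K27me3.

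The starts of Grb10 form an upstream pair, a group of 3 farther downstream and a lone start beyond it. Around the group of 3, which includes the promoter used in neurons, H3K27me3 covered 4185 bp in wild type ES, no base in PCGF5-depleted ES, 6680 bp in wild type NPC and 1979 bp in depleted NPC. Around the upstream pair it covered 795, 260, 4907 and 1887 bp. H2AK119ub1 in ES was at both groups in wild type cells, with 618 bp downstream and 277 bp upstream, and in depleted cells at the upstream pair alone, with 738 bp. Flag-PCGF5 lay at the downstream group in both stages, as a peak of 1272 bp with a fold of 3.31 in ES and a peak of 203 bp with a fold of 9.97 in NPC, the one printed above. The latter ranked at the 98.4 percentile of its list by score. A further Flag-PCGF5 peak of 223 bp was near the lone start in ES. No Flag-PCGF5 peak lay at the upstream pair, as the peak map of Grb10 shows.

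**Figure D3:**
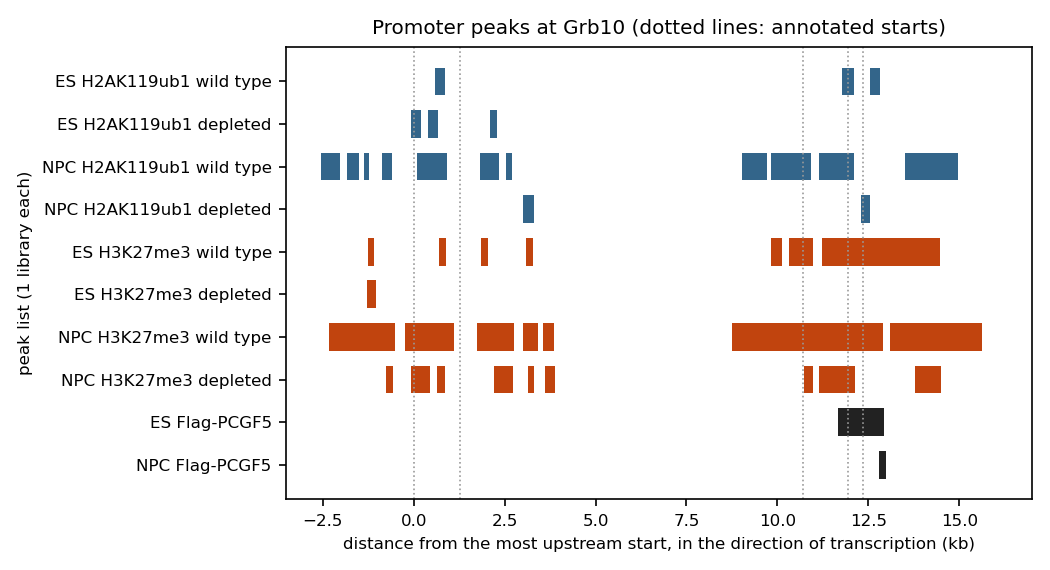
Promoter peaks at Grb10 in each list (rows), as bars along the distance from its most upstream start in kb (x axis, positive in the direction of transcription). Dotted lines are annotated starts. The wild type NPC bars are the longest at both groups of starts, and the Flag-PCGF5 bars lie at the downstream group only (the ES peak near the lone start is outside the range).

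In distal chromosome 7, the domain known in humans for the Beckwith-Wiedemann overgrowth syndrome, 5 maternally expressed genes besides Igf2 carried H3K27me3. Cdkn1c, an inhibitor of cyclin-dependent kinases, had 2189 bp in wild type ES, 3368 bp in PCGF5-depleted ES, 2643 bp in wild type NPC and 3054 bp in depleted NPC, so its coverage was not shorter in depleted cells. Its highest fold in NPC was 9.96 in wild type and 3.84 in depleted cells, and a wild type peak of 2643 bp stood opposite 5 peaks in the depleted list. Phlda2, a restraint on placental growth, had 564, 331, 2748 and 1293 bp in the same order of lists. Ascl2, a transcription factor of the placental lineage, had 1077, 1518, 4013 and 3116 bp. Osbpl5, which encodes an oxysterol-binding protein, had 502, 828, 203 and 273 bp. Its wild type peaks lay at the start 150942890 and its depleted peaks near the starts 150926246 and 150927868, so that no start of Osbpl5 had H3K27me3 in both genotypes.

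H2AK119ub1 in this domain lay at 6 of the 11 genes in wild type ES, 4 in PCGF5-depleted ES and 3 in each NPC list. Cdkn1c had 1775 bp in wild type ES, 1269 bp in PCGF5-depleted ES, none in wild type NPC and 632 bp in depleted NPC. Phlda2 had 400, 265 and 167 bp in the first 3 of these lists and none in the last, and Ascl2 had none in ES, 473 bp in wild type NPC and 339 bp in depleted NPC. Osbpl5 had 449 bp in wild type ES and 293 bp in PCGF5-depleted ES, and none in NPC. Ins2, an insulin gene, had 3 peaks of 782 bp in all in wild type ES alone. Slc22a18, a transporter, had 140 bp of H2AK119ub1 in wild type ES and 201 bp of H3K27me3 in PCGF5-depleted ES. Tssc4, Cd81, Tspan32 and Nap1l4 of the same domain had no peak in any list, and no Flag-PCGF5 peak lay at any of its 11 genes. The nearest Flag-PCGF5 peak of either list was between 5241196 bp (Igf2) and 6324071 bp (Osbpl5) from a start. The absence thus holds for a far wider stretch than these genes, and whether the Flag lists have a gap there was not tested.

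Dlk1 and Dio3 lie at the ends of a chromosome 12 domain and are expressed from the paternal allele. Dlk1, a membrane protein related to Notch ligands that holds back differentiation, had 2537 bp of H3K27me3 in wild type ES, 1380 bp in PCGF5-depleted ES, 4245 bp in wild type NPC and 3559 bp in depleted NPC. Dio3, an enzyme that inactivates thyroid hormone, had 1684 bp in wild type ES, none in PCGF5-depleted ES, 5000 bp in wild type NPC and 4277 bp in depleted NPC. For both genes the NPC lists were above the ES lists. H2AK119ub1 at Dio3 was 523, 166, 1618 and 1611 bp in the same order, which in NPC is close to equal between genotypes. At Dlk1 this mark was a peak of 161 bp in wild type ES and 1 of 275 bp in PCGF5-depleted NPC, with none in the other 2 lists.

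Gnas (chr2:174109821-174172245, forward strand), which encodes the stimulatory G protein alpha subunit and has several promoters of differing allele use, had 2419 bp of H3K27me3 in wild type ES, 465 bp in PCGF5-depleted ES, 5547 bp in wild type NPC and 3613 bp in depleted NPC. The 3 starts farthest upstream, between 174109821 and 174110859, had no peak in any list. With each peak assigned to its nearest start, the next start had 3956 bp and the one after it 1591 bp in wild type NPC, beside 1235 and 2378 bp in depleted NPC, so the shorter coverage in the depleted list was at the first of this pair. The 4 most downstream starts are those of the G protein transcript itself. For H3K27me3 they were the nearest starts in wild type ES alone, to a peak of 496 bp. H3K27me3 peaks assigned to the start before them also lay within 2500 bp. For H2AK119ub1 they were nearest to a peak of 431 bp in wild type ES and 1 of 480 bp in PCGF5-depleted ES. H2AK119ub1 at the gene covered 914, 1039, 670 and 359 bp.

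Rasgrf1 (chr9:89804613-89921814, forward strand), an activator of Ras that is abundant in neurons and is expressed from the paternal allele in brain, had 1592 bp of H3K27me3 in wild type ES, 1450 bp in PCGF5-depleted ES, 3911 bp in wild type NPC and 3588 bp in depleted NPC. H2AK119ub1 differed more between genotypes, at 734 bp against 188 bp in ES and 2108 bp against 337 bp in NPC. The depleted NPC list held peaks of 155 bp, printed above, and 182 bp, both upstream of the start, with a highest fold of 7.43 beside 6.96 in wild type NPC. The mark there was thus shorter but not of lower fold. The median fold of the whole list was 4.91 in depleted and 4.35 in wild type NPC. By score, the highest Rasgrf1 peak ranked at the 85 percentile of the depleted NPC list and the 91.8 percentile of the wild type one.

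The maternally expressed Klf14, Calcr and Slc22a3 completed the genes with H3K27me3 in all 4 lists. Klf14, a transcription factor encoded by a gene with 1 exon, had 785, 1456, 3349 and 1736 bp in the 4 lists in the order used above. Calcr, the calcitonin receptor, had 285, 613, 1828 and 802 bp, and Slc22a3, an organic cation transporter, had 785, 613, 2197 and 1012 bp. All 3 genes were longest in wild type NPC. Of these, Klf14 had H2AK119ub1 in wild type NPC (636 bp), and Calcr and Slc22a3 had none in any list.

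A further 9 imprinted genes had H3K27me3 in 1 to 3 lists. In the Prader-Willi and Angelman domain, Ndn and Magel2, paternally expressed genes of the MAGE family that act in neurons, differed from the genes above. Ndn had no peak in either wild type H3K27me3 list, 264 bp in PCGF5-depleted ES and 851 bp in PCGF5-depleted NPC. Magel2 had 889 bp in wild type ES, 678 bp in PCGF5-depleted ES, none in wild type NPC and 1007 bp in depleted NPC, where 231 bp of H2AK119ub1 was also found. In NPC both genes had H3K27me3 in the depleted list alone. Atp10a of the same domain, a lipid transporter, went the other way, with 875, 458, 271 and no bp. The rest were Dio3, Igf2r and Slc22a18 (above), Slc22a2 with 258 bp and Nnat with 275 bp, both in wild type ES alone, and Plagl1, a growth-restraining zinc finger protein, with 203 bp in wild type NPC alone. The Plagl1 peak was at the 7.88 percentile of its list by score.

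To compare the genotypes, presence and length were compared within each stage. In ES, 3 imprinted genes (Ins2, Slc22a18 and Dlk1) had H2AK119ub1 in wild type alone (background 3.43%), and none had it in depleted cells alone (2.69%). Of the 8 with a peak in both genotypes (3.27%), 5 were at least 1.5-fold shorter in depleted ES (33.1% of all such genes) and none at least 1.5-fold longer (24.7%), and the highest fold was lower at all 8 (77.8%). In NPC the mark was in wild type alone at Phlda2 and Klf14 (2.46%) and in depleted cells alone at Cdkn1c, Magel2 and Dlk1 (1.65%). Of the 6 in both (2.53%), Grb10, Gnas and Rasgrf1 were at least 1.5-fold shorter in depleted cells, 3 of 6 beside 50% of all genes, and none was longer (18%). The highest fold was lower at 1 of these 6 (35.6%).

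For H3K27me3 in ES, Dio3, Nnat and Slc22a2 had a peak in wild type alone (3.9%) and Igf2r, Slc22a18 and Ndn in depleted cells alone (3.43%). Of the 14 with a peak in both (9.49%), Igf2, Phlda2, Grb10, Atp10a, Dlk1 and Gnas were at least 1.5-fold shorter in depleted cells (33.6%), and Cdkn1c, Osbpl5, Calcr and Klf14 at least 1.5-fold longer (24.4%), where the Osbpl5 peaks of the genotypes lie at different starts. Lengths in ES thus differed in both directions. The highest fold was lower in depleted ES at 9 of the 14, beside 33.4% of all genes.

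In NPC, H3K27me3 was in wild type alone at Atp10a and Plagl1 (3.74%) and in depleted cells alone at Ndn and Magel2 (3.54%). Of 13 genes with a peak in both (11.9%), Phlda2, Grb10, Calcr, Klf14, Gnas and Slc22a3 were at least 1.5-fold shorter in the depleted list (39.7%), and none was at least 1.5-fold longer (14.5%). The highest fold was lower at 12 of 13, the exception being Osbpl5, beside 71.6% of all such genes. The 37 peaks at imprinted genes in wild type NPC had a median width of 1333 bp and the 60 in depleted NPC one of 424.5 bp, while over the whole lists these widths were 453 and 360 bp. At these genes the depleted list thus held more and narrower peaks. The lineage markers differed between the same lists: H3K27me3 covered 6144 bp in wild type and 2800 bp in depleted NPC at the ES markers, 27993 and 17106 bp at 6 mesoderm and endoderm markers, and 30834 and 30483 bp at the neural markers. The part of cell type in the differences at imprinted genes was not tested. The plot of covered length by genotype shows 11 of the 13 lines of NPC running down, Cdkn1c and Osbpl5 going up by less than 1.5-fold, and those of ES crossing.

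**Figure D4:**
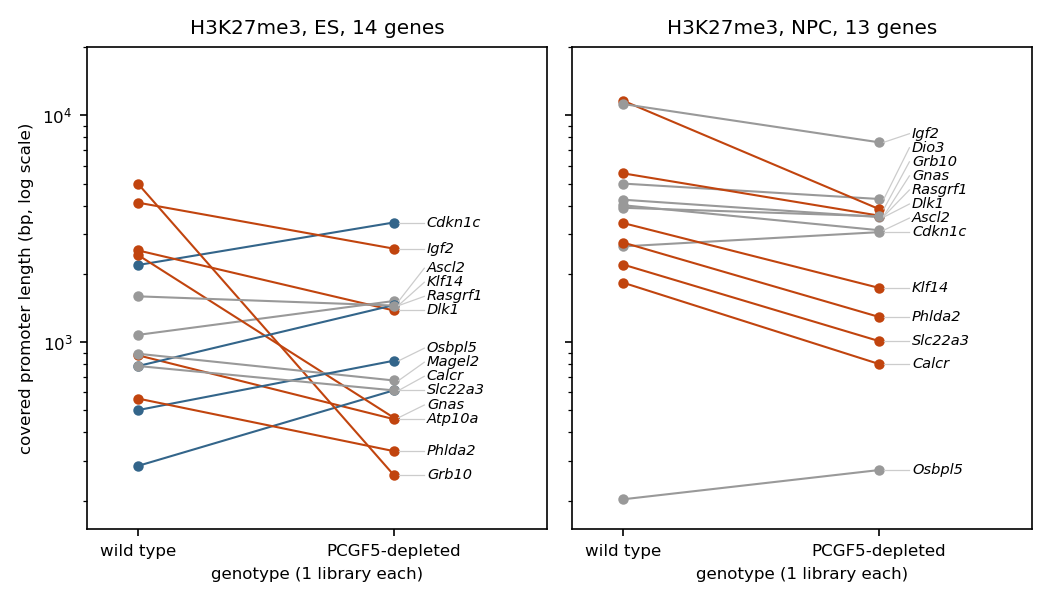
Covered length of H3K27me3 promoter peaks (y axis, bp, log scale) in wild type and PCGF5-depleted cells (x axis, 1 library each) for imprinted genes with a peak in both, in ES (left, 14 genes) and NPC (right, 13 genes). Red lines are at least 1.5-fold shorter in depleted cells (6 genes in each panel), blue lines at least 1.5-fold longer (4 in ES, none in NPC), and grey lines lie between.

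Between stages, most imprinted genes with H3K27me3 in ES also had it in NPC, as did most such genes among all genes. In wild type cells these were 14 of 17 imprinted genes, beside 2129 of 2976 among all genes. In depleted cells they were 14 of 17, beside 2190 of 2872. Coverage was longer in NPC at most imprinted genes with a peak at both stages. In wild type cells Magel2, Nnat and Slc22a2 had it in ES alone (3.81%) and Plagl1 in NPC alone (6.08%). Of 14 genes with a peak at both stages, 11 were at least 1.5-fold longer in NPC (72.8% of all such genes), and Osbpl5 and Atp10a at least 1.5-fold shorter (6.76%), so the share that was longer is near that of all genes. In depleted cells Igf2r, Slc22a18 and Atp10a had the mark in ES alone (3.07%) and Dio3 in NPC alone (5.6%), and 9 of 14 were at least 1.5-fold longer in NPC (64.5%) and Osbpl5 shorter (10.1%). Summed over the imprinted genes, H3K27me3 covered 25815 bp in wild type ES, 16684 bp in PCGF5-depleted ES, 58954 bp in wild type NPC and 39652 bp in depleted NPC. The whole lists covered 4.31, 3.84, 9.67 and 8.18 Mb in the same order.

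For H2AK119ub1 in wild type cells, Ins2, Cdkn1c, Slc22a18, Osbpl5 and Dlk1 had a peak in ES alone (4.22%) and Ascl2 and Klf14 in NPC alone (2.51%). Of the 11 imprinted genes with the mark in wild type ES, 6 also had it in NPC, beside 550 of 1488 among all genes. Of these 6, Grb10, Dio3 and Rasgrf1 were at least 1.5-fold longer in NPC (40%), and Igf2 and Phlda2 at least 1.5-fold shorter (27.1%). In depleted cells Phlda2 and Osbpl5 had it in ES alone (3.52%) and Ascl2, Magel2 and Dlk1 in NPC alone (1.74%). Of the 8 imprinted genes with the mark in depleted ES, 6 also had it in depleted NPC, beside 542 of 1324 among all genes. Of these 6, Dio3 and Rasgrf1 were at least 1.5-fold longer in NPC (22%) and Cdkn1c and Gnas at least 1.5-fold shorter (38.9%). The summed length was 11519, 5828, 15719 and 6911 bp in the 4 lists in the order used above. Of the 15719 bp, 6929 bp was Grb10.

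Flag-PCGF5 was found at 8 imprinted genes in NPC alone (13.5%) and at none in ES alone (0.526%). The ES list held 653 peaks and the NPC list 12013, and when both were limited to their 653 highest-scoring peaks, 0 imprinted genes had it in NPC alone and Grb10 was the 1 left. The 9 genes with a peak in NPC were Grb10, Calcr, Mest, Ube3a, Mkrn3, Nnat, Zrsr1, Commd1 and Slc38a4. Of these, 6 (all but Grb10, Calcr and Nnat) had no histone peak in any of the 8 lists, beside 64.7% of all genes with Flag-PCGF5 in NPC, and Grb10 and Calcr had it together with H3K27me3 in wild type NPC (3.48%). Outside Grb10 the folds were low. Slc38a4, an amino acid transporter of the placenta, had a peak of 182 bp with a fold of 3.32, centred 81 bp upstream of a start, at the 92 percentile of its list. The peaks at the others had highest folds between 1.95 (Nnat) and 2.52 (Commd1), where the median of all genes with a peak was 2.18.

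Among these, Mkrn3, which encodes a zinc finger protein with a ring finger, had a peak of 1465 bp. Ube3a, the ubiquitin ligase affected in Angelman syndrome, had a peak of 1324 bp. Mest, a paternally expressed gene of the hydrolase family, had peaks of 176 bp, printed above, and 322 bp. The shorter was centred 2232 bp upstream of the nearest start and the longer 168 bp upstream. Zrsr1, a paternally expressed retrogene that encodes a splicing factor, lies within Commd1, and each had a peak of its own, of 634 and 618 bp. Both genes lie in a stretch of 5 Mb with at least 5 peaks of fold 8 or more in the NPC list, and the part of this stretch in their peaks was not tested. Without such stretches, 7 imprinted genes had Flag-PCGF5 in NPC.

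A list of 12 of the 46 genes was drawn up as having a promoter in a region whose maternal copy is methylated in the egg. It leaves out Gnas, of which some promoters also lie in such regions and which had both marks in all 4 lists (above). Of the 12, H3K27me3 was found in any list at 3, namely Grb10, Nnat and Plagl1, a share near the 23.1% of all genes, and H2AK119ub1 at Grb10 (12% of all genes). Flag-PCGF5 in NPC was at 5 (Grb10, Mest, Nnat, Zrsr1 and Slc38a4), beside 13.7% of all genes. Of these, Grb10 alone was left when the Flag-PCGF5 lists were limited to the same number of peaks (above). No list had a peak at the other 6, which were Peg3, a zinc finger gene, Usp29 in the same domain, the retrotransposon-derived Peg10 and its neighbour Sgce, Snrpn, a splicing protein of the Prader-Willi domain, and Impact. The annotated start of Usp29 used here, 6913871, lies far from the Peg3 start 6683132, so its window does not cover the Peg3 promoter. Whether the Usp29 window lies in a methylated region was not tested. By the allele known to be expressed, H3K27me3 was in any list at 8 of 19 paternally expressed genes, 11 of 23 maternally expressed genes and 2 of 4 whose allele depends on tissue or transcript, beside 23.1% of all genes. A difference between these groups was not tested.

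The 18 imprinted genes with no peak in any list were Peg3, Zim1 and Usp29, Peg10, Sgce, Ppp1r9a and Asb4, Tssc4, Cd81, Tspan32 and Nap1l4, Snrpn, Ddc, Copg2, Blcap, H13, Impact and Dcn. The nearest H3K27me3 peak of any list was between 6128 bp (Blcap) and 211154 bp (Dcn) from a start, with a median of 33683 bp, and at 15 of the 18 it was more than 10 kb away. Neighbours thus differed within a domain. Ddc, which lies next to Grb10 and encodes a decarboxylase for dopamine and serotonin synthesis, was 14562 bp from the nearest peak, and Copg2, next to Mest, was 24557 bp from it. The Peg3 domain was without a peak at all 3 of its genes.

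CpG content around the starts was compared between these groups, as observed over expected CpG within 500 bp on each side of a start, taking the highest value of a gene. Imprinted genes had a median of 0.74 and all genes 0.596, and 31 of 46 reached 0.6, a usual limit for CpG islands, beside 49.7% of all genes. The 12 genes with H3K27me3 in all 4 lists had a median of 0.828, the 9 with it in 1 to 3 lists 0.84 and the 25 with none 0.715. The mean number of starts over which the highest value was taken was 3.83, 3.11 and 3 in these groups. It was 3.24 for the imprinted genes and 2.07 for all genes, and the part of this in the CpG values was not tested. The highest values were those of Grb10 (1.06) and Klf14 (1.03), and the lowest among the 12 were those of Osbpl5 (0.433) and Calcr (0.515). High values also occurred without a peak: 15 of the 25 genes with no H3K27me3 reached 0.6, with Ube3a (0.92) and Nap1l4 (0.868) at the top. Of genes that reached 0.6, 13 of 31 imprinted genes had H3K27me3 in wild type ES and 17.9% of all such genes did, and in wild type NPC it was 13 of 31 and 22.6%.

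**Figure D5:**
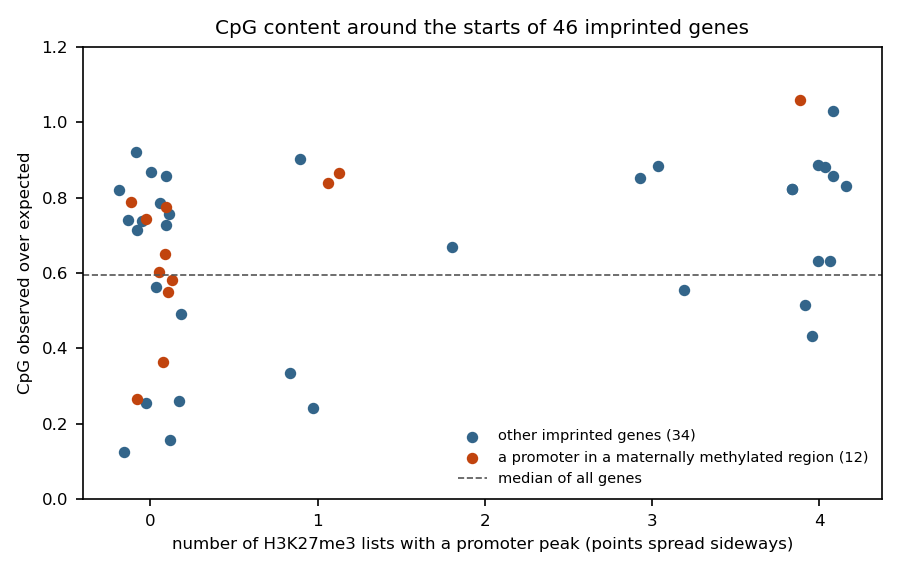
Observed over expected CpG around the starts (y axis, highest value per gene) against the number of H3K27me3 lists with a promoter peak (x axis, 0 to 4) for the 46 imprinted genes. Red points are the 12 genes listed with a promoter in a maternally methylated region (Gnas is among the others), the dashed line is the median of all genes (0.596), and high values occur both at 0 lists, up to 0.92, and at 4 lists, up to 1.06.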

How the data were processed

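The members, the gene lists and the comparisons were chosen with earlier results of these data known. According to the study's methods, chromatin for the histone marks was cut with micrococcal nuclease and that for Flag was crosslinked and sonicated, which gives different peak widths. The authors aligned reads to mm9 with Bowtie2 and ran MACS2 2.1.0 on each library by itself to call peaks (versions from the submitters' processing notes, which also name bedtools). Drosophila chromatin was added as a spike-in, which does not enter the peak lists.

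Each line of a deposited list carries the MACS2 score, the fold over background and the −log10 of the p-value and of the q-value. The deposited score is 10 times the −log10 p-value (histone lists) or −log10 q-value (Flag lists), rounded down, and was used to rank peaks within a list. Depth is unknown, so no interval for it is given.

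With Python 3.11.15 and pandas 2.3.3, a peak was assigned to each gene with a protein-coding start within 2500 bp of its centre. No peak was counted for more than 1 imprinted gene. With 1 library per group nothing was tested. Counts stand beside the percent of all 22232 genes, or of all genes with a peak in both lists. Every member with a peak is named, and the others are listed. The assignment was tested on simulated data. The 7 alternatives were windows of 1000 and 10000 bp, any base of a peak, the higher-scoring 50%, q-values up to 0.05, the same number of peaks, and Flag peaks outside stretches of high fold. The input libraries were not used. The CpG limit of 0.6 was chosen after the data were seen.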

Additional observations from a re-analysis of the deposited data

Results flagged for a closer look

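For H2AK119ub1, the number of imprinted genes with a promoter peak differed by -3 (PCGF5-depleted minus wild type) in ES, from 11 to 8, and by 1 in NPC, from 8 to 9. The direction in NPC holds for the window of 2500 bp: with 1000 bp the counts in NPC were 7 and 7, and with 10000 bp 10 in wild type and 9 in depleted cells. Covered length was shorter in depleted cells at both stages, at 11519 and 5828 bp in ES and 15719 and 6911 bp in NPC. At Dlk1 the number of H2AK119ub1 peaks differed by -1 in ES and by 1 in NPC. With 1 library per group the difference between stages was not tested.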

How the results depend on the processing

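No paired analysis was possible because each group had 1 library and the labels give no replicate numbers. Counts and lengths below are over the 46 imprinted genes, and a value is named when a count changed by more than 1.5 times or a length likewise. Counting any base of a peak, or leaving out Flag-PCGF5 stretches of high fold, moved none that far.

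With a window of 1000 bp, genes with H2AK119ub1 numbered 7 in wild type ES and 5 in depleted ES, 1 had it in depleted ES alone, 3 in wild type ES but not wild type NPC, and 1 in depleted ES but not depleted NPC. H3K27me3 was then in wild type alone at 5 in ES and 1 in NPC, in ES alone at 5 and in NPC alone at 2 (wild type), and in NPC alone at 3 (depleted). H2AK119ub1 covered 5791, 3408, 7788 and 3684 bp (wild type and depleted ES, then NPC), and H3K27me3 36550 and 20864 bp in wild type and depleted NPC. With 10000 bp, H2AK119ub1 was in wild type alone at 5 in ES, in depleted NPC alone at 1 and in wild type NPC but not ES at 1. H3K27me3 was in wild type NPC alone at 1, in wild type ES but not NPC at 6, and in depleted NPC but not ES at 2.

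With the higher-scoring 50% of each list, H2AK119ub1 was at 4 genes in depleted ES and 5 in wild type NPC, in wild type alone at 5 in ES and 1 in NPC, in wild type NPC but not ES at 1, and in depleted ES but not NPC at 0. H3K27me3 was in wild type NPC alone at 0, in NPC but not ES at 0 (wild type) and 3 (depleted). Flag-PCGF5 was in NPC alone at 5. Lengths were 2516 bp (H2AK119ub1, depleted ES), 8897 and 3917 bp (wild type and depleted NPC), 10699 bp (H3K27me3, depleted ES), and 223 and 3432 bp (Flag-PCGF5, ES and NPC). With the same number of peaks, H2AK119ub1 was at 4 genes in depleted ES (2516 bp), in wild type alone at 5 in ES and 1 in NPC, and in depleted cells in ES alone at 0 and in NPC alone at 5. H3K27me3 was in wild type NPC alone at 0, and Flag-PCGF5 in NPC at 1 gene, Grb10 (203 bp), with 0 in NPC alone. With q-values up to 0.05, H3K27me3 was in wild type NPC but not ES at 2.

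The causes of these shifts were not tested, beyond the fewer peaks or the other window that each setting uses. H3K27me3 stayed in every setting at 14 of the 17 genes in wild type ES, 11 of 17 in depleted ES, 10 of 15 in wild type NPC and 14 of 15 in depleted NPC. H2AK119ub1 did so at 6 of 11, 3 of 8, 4 of 8 and 6 of 9 genes in the same order. In the NPC Flag-PCGF5 list only Grb10 did so, of 9.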

Other observations

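Other imprinted genes outside the 46 were looked up from a list of 16, of which 7 had no peak in any of the 10 lists (Nap1l5, Mcts2, Trappc9, Rtl1, Pon2, Pon3 and Tfpi2). Of all genes, 33.8% had a peak in at least 1 list. Kcnk9, a potassium channel, and Begain, a neighbour of Dlk1, had a peak in all 8 histone lists, beside 1.42% of all genes. H3K27me3 at Kcnk9 covered 2594 bp in wild type ES, 1166 bp in PCGF5-depleted ES, 4490 bp in wild type NPC and 2195 bp in depleted NPC. At Begain it covered 2600, 1412, 3347 and 3168 bp. Kcnq1, another potassium channel, had H3K27me3 in all 4 lists (7.21% of all genes), at 1170, 1726, 2677 and 1539 bp in the same order. Sfmbt2, which encodes a Polycomb-related protein, had no peak in ES, but in NPC it had 3781 bp of H3K27me3 in wild type cells, 2773 bp in depleted cells and 1939 bp of Flag-PCGF5. Th, tyrosine hydroxylase, had H3K27me3 in both ES lists (657 and 201 bp) and in neither NPC list, and 1511 bp of H2AK119ub1 in wild type ES.

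Among 6 long non-coding RNAs of imprinted domains matched by name, H19 had 580 bp of H2AK119ub1 and 228 bp of H3K27me3 in wild type ES and 219 bp of H3K27me3 in PCGF5-depleted NPC. Nespas had 324 bp of H3K27me3 in wild type NPC and Meg3 251 bp of Flag-PCGF5 in NPC, while Airn, Rian and Mirg had no peak. Of 16 genes listed as acting on imprints, 9 had no peak in any list and 7 had one, where 33.8% of all genes did, with Zfp57, Trim28, Dnmt1 and Ctcf among the 9. Dnmt3a (1932 bp) and Tet2 (1040 bp) had H3K27me3 in wild type NPC and in no other list, and Uhrf1, Tet2 and Tet3 had Flag-PCGF5 in NPC.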
